A study of Homo sapiens with 9 samples.

Results

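The nuclear-encoded subunits of the respiratory chain were described in CAL27 cells, an established tongue squamous carcinoma line, and in 3 CRISPR-edited groups of these cells. The members were the protein-coding genes whose symbols match the subunit families NDUFA, NDUFB, NDUFC, NDUFS and NDUFV with a number, SDHA to SDHD, UQCR, CYC1, the COX families from COX4 to COX8 that carry a letter A, B or C, and ATP5F1, ATP5M and ATP5P. Assembly factors named NDUFAF were left out, and so were NDUFA4 and NDUFA4L2. Of 78894 gene identifiers in each sample, 85 were members: 37 of complex I, 4 of complex II, 10 of complex III, 15 of complex IV and 19 of complex V. The pattern takes symbols only, so it does not hold the subunits NDUFAB1 and COX4I1, the inhibitor ATP5IF1 or the carrier CYCS. It does hold 2 readthrough genes, NDUFC2-KCTD14 and ATP5MF-PTCD1.

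The respiratory chain sits in the inner mitochondrial membrane. Complexes I and II pass electrons from NADH and succinate to ubiquinone, complex III passes them on to cytochrome c, complex IV reduces oxygen, and complex V, the ATP synthase, uses the proton gradient to make ATP. Most subunits are encoded in the nucleus and imported, whereas a core set in complexes I, III, IV and V is encoded by mitochondrial DNA. Carcinoma cells in culture use this chain beside glycolysis.

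The series title names a functional enhancer of head and neck cancer. There were 3 samples of CAL27 cells labelled Control and 2 of each knockout (A2ko, A8ko and C9ko), all grown in DMEM with serum and listed without further treatment. What was edited in each knockout is not named, so no target could be checked, and whether a knockout was a clone or a pool of cells is not stated. PolyA RNA was measured, and values are TPM, which are shares of a library corrected for gene length. The A2ko pair held identical values and so did the A8ko pair, so 7 of the 9 samples were distinct and a pair stood for 1 library. A2ko and A8ko therefore have no replicates and no test. Nothing in the labels says that replicates came from separate cultures, so p-values measure only the spread between these samples, which may be technical. Sequencing depth is unknown because TPM does not keep it, and no counting error is given.

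Squamous epithelial markers were present as the label has it, with 6 genes summing to 13931 to 15057 TPM in Control and 5689 to 8590 TPM in the knockout libraries. KRT5 and KRT14 were lower in every knockout library, whereas CDH1 was higher in each (138 to 177 against 100.3 to 106 TPM). The 5 fibroblast markers summed to 7.95 to 9.30 TPM in Control and 6.92 to 15.5 TPM in the knockouts, with COL3A1 at 0 in every library, and the 4 blood markers never summed to more than 0.717 TPM. The 3 endothelial markers summed to 3.51 to 4.55 TPM in Control and 8.63 to 30.1 TPM in the knockouts, nearly all of it CDH5. The part of these marker levels in the results was not tested. In bulk RNA, fewer cells of a type and less RNA per cell cannot be told apart.

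Promoter sequences of 4 members are shown because these genes gave the largest rises and falls that passed the test in C9ko in complexes I, II and III and hold the letters of an NRF1 core. Holding an NRF1 core was thus a condition of being shown and is not a result. NRF1 is a transcription factor known to act on genes of the respiratory chain. The letters GCGC followed by any 2 bases and GCGC again (NRF1 core), CCGGAAG (ETS core, the family of GABPA) and AAGATGG (YY1 core) were searched on both strands from 250 bases before to 50 bases after the RefSeq start on GRCh38.p14. Of the 85 members, 68 had a RefSeq entry, and the comparison was with all 27305 genes in the same table. The NRF1 core stood in 26.5% of the members' windows and 9.98% of all windows. The ETS core stood in 29.4% and 12.2%, the YY1 core in 26.5% and 7.11%, and at least 1 of these motifs in 64.7% and 25.4%. The 27305 genes were not matched to the members by gene type, level or base composition. These shares therefore do not set the members apart from similar genes. A match is a description of letters only. Of the other members that passed the test in C9ko, UQCRB and COX6C had no RefSeq entry there and were not searched. NDUFA2, NDUFB6 and ATP5MC2 held none of these motifs, and UQCRH held the ETS core only. The 250 bases before the start follow, 5′ to 3′ on the gene's strand, with the NRF1 core in capitals. UQCRC1 is at chr3:48609647-48609896 on the minus strand, NDUFA12 at chr12:95003698-95003947 on the minus strand, SDHA at chr5:218070-218319 on the plus strand and NDUFB10 at chr16:1959288-1959537 on the plus strand.
UQCRC1: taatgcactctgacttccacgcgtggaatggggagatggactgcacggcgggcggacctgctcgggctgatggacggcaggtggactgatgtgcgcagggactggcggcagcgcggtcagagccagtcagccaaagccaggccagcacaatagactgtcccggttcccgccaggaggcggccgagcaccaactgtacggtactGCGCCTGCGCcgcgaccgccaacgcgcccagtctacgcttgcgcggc
NDUFA12: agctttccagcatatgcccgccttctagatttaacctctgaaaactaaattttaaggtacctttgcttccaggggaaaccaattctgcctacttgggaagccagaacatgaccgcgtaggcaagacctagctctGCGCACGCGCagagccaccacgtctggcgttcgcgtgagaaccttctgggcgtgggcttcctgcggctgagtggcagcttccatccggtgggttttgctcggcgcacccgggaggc
SDHA: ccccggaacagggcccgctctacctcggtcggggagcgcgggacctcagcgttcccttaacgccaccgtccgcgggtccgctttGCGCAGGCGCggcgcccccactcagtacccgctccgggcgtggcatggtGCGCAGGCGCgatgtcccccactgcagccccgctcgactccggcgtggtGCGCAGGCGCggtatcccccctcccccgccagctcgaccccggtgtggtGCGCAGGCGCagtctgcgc
NDUFB10: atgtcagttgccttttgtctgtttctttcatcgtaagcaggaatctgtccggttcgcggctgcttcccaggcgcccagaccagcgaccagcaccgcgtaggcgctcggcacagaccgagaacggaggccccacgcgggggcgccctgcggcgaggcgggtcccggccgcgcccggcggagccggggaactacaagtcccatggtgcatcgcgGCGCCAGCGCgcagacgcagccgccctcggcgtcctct
SDHA held 4 matches, each 49 bases from the next, and each of the other 3 held 1. UQCRC1 and NDUFA12 also held a YY1 core match that reaches past the RefSeq start and is not in the printed bases. GENCODE 29 places the outer start of all 4 genes farther upstream, so all of the printed bases of UQCRC1 and part of those of the other 3 lie inside the annotated gene there.

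The members were among the abundant messages of these cells. The tested members had a median Control level of 164 TPM, against 9.80 TPM over all 17100 tested genes (those reaching 1 TPM in 2 or more of the distinct libraries). Of the 85 members, 79 passed this filter. The 6 that did not were COX6A2, COX7A1, COX7B2, COX8C, ATP5MGL and ATP5MF-PTCD1. The highest member of complex I was NDUFV1, the NADH-binding flavoprotein, at 376 ± 20.7 TPM in Control (SD, n = 3). In complex II it was SDHC, a membrane anchor, at 282 ± 21.4 TPM, and in complex III UQCRH, the hinge protein next to cytochrome c1, at 483 ± 41.2 TPM. COX8A led complex IV at 1577 ± 79.9 TPM and ATP5F1B, the catalytic beta subunit, led complex V at 1189 ± 42.7 TPM. COX8A and ATP5F1B stayed at or above 923 TPM in each of the 7 libraries.

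Where a subunit has a second isoform, CAL27 cells used the ubiquitous one. COX6A1 took 100% of the COX6A sum in every library, COX7B took 100% of the COX7B sum, and COX6A2 and COX7B2, known from muscle and from testis, were listed at 0 throughout. COX7A1, the heart and muscle isoform, stayed at or below 0.616 TPM while COX7A2 ranged from 427 to 533 TPM. COX8C was listed at 0 except for 0.136 TPM in A2ko. The 3 genes for the membrane ring subunit c, which encode the same mature protein, were all present, and ATP5MC1 took 51.8 to 55.0% of their sum in Control, 57.0% and 57.2% in C9ko, 47.7% in A2ko and 53.5% in A8ko. UQCRHL, a near-identical intronless copy of UQCRH, took 0.334 to 1.09% of the pair over the 7 libraries, and reads of the pair cannot be told apart with certainty.

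Summed over all members, Control stood at 18457 ± 504 TPM (SD, n = 3). The sums were 19029, 18260 and 18081 TPM in Control, 17467 and 17964 TPM in C9ko, 16505 TPM in A2ko and 18932 TPM in A8ko. A2ko, at 89.4% of the Control mean, and both C9ko libraries, at 95.98% on average, lay below every Control library, whereas A8ko at 102.6% lay inside the Control range. Scaling by the median of ratios over tested genes, which sets the typical gene equal between libraries, gave 81.7%, 87.5% and 95.6% for A2ko, C9ko and A8ko, so the value of A8ko moved to the other side of Control. The sum of complex V was 4456 TPM in A2ko against 5390 ± 90.2 TPM in Control (SD, n = 3), or 82.7%, and complexes I to IV of A2ko were at 90.1 to 93.3%. In C9ko, complex II was lowest at 85.2% of Control and complex I highest at 101.9%. In A8ko the complexes ranged from 98.1% (complex II) to 105.1% (complex IV).

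**Figure D1:**
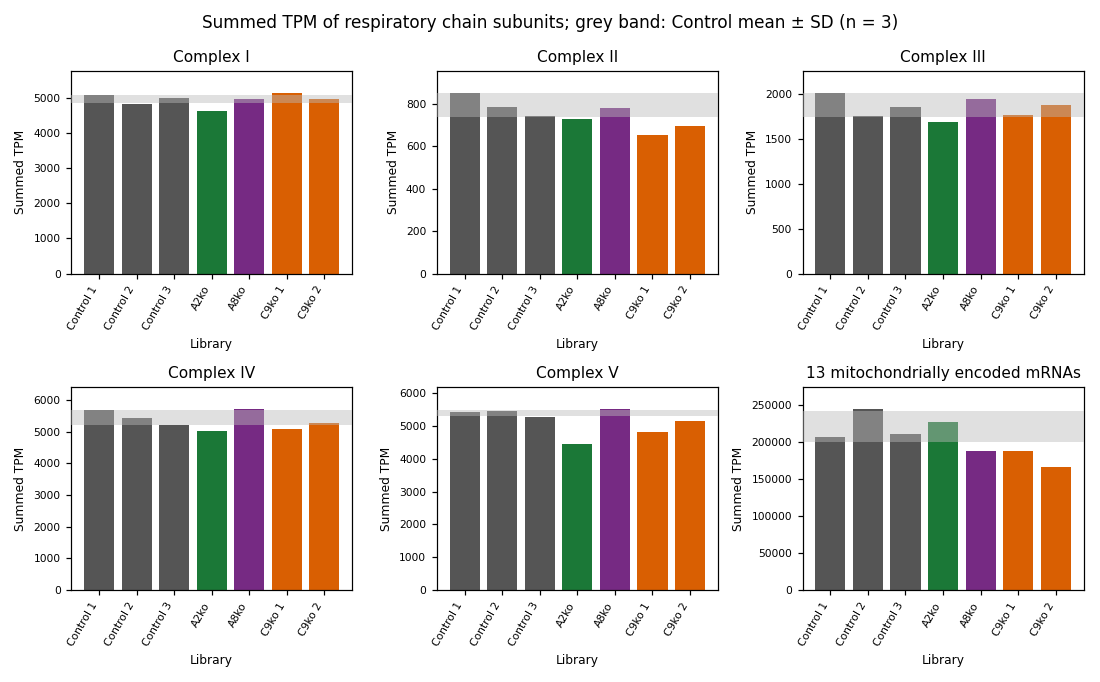
Summed TPM of the nuclear-encoded members of each complex and of the 13 mitochondrially encoded mRNAs (vertical axes, from 0) in the 7 distinct libraries (horizontal axes), with the Control mean ± SD as a grey band (n = 3). Complex V of A2ko stands at 4456 TPM against a Control mean of 5390 TPM, and the mitochondrially encoded sum is lower in A8ko and C9ko than in the Control libraries.

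The 13 mRNAs of mitochondrial DNA, which supply the partners of these proteins, summed to 221102 ± 20848 TPM in Control (SD, n = 3), 188528 and 166201 TPM in C9ko, 227484 TPM in A2ko and 187486 TPM in A8ko. The nuclear sum was 9.19, 7.45 and 8.56% of that sum in Control, 9.26 and 10.8% in C9ko, 7.26% in A2ko and 10.1% in A8ko. A8ko and both C9ko libraries were above the Control range of this ratio, and A2ko was below it. In C9ko all 13 mitochondrially encoded genes had negative log2 differences, and 3 of the 13 fell (23.1%, limma, Benjamini-Hochberg adjusted p under 0.05). Over all tested genes 29.5% were called, 22.0% higher and 7.42% lower. Because TPM is a share, so large a set moves the values of all other genes. Without the genes of mitochondrial DNA, the members' sums were 90.3%, 97.6% and 89.5% of Control in A2ko, A8ko and C9ko.

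Differences per gene were taken on log2(TPM + 1), a scale that understates the change of weakly expressed genes. The 79 tested members had medians of −0.14 (A2ko), −0.01 (A8ko) and −0.05 (C9ko), beside 0.12, 0.09 and 0.11 over all tested genes. The SD of the members' median among the 3 Control libraries was 0.0464. After scaling by the median of ratios the members' medians were −0.27, −0.11 and −0.18. The 3 comparisons share the same Control libraries, so their values are not independent of each other. Below the Control mean were 47 and 48 of 79 members in the C9ko libraries, 60 in A2ko and 42 in A8ko. In the Control libraries themselves 26, 53 and 43 were, so by this raw count only A2ko was outside what the Control libraries showed. Over all tested genes the shares were 39.0% and 31.9% in C9ko, 37.1% in A2ko and 38% in A8ko, beside 40.4%, 67.4% and 42.3% in Control. The members' median minus that of all tested genes in the same library was 0.017, −0.011 and −0.027 in Control. It was −0.13 and −0.20 in C9ko, −0.26 in A2ko and −0.096 in A8ko, so by this measure every knockout library was below the Control libraries. The Control libraries are part of the mean they are set against, which makes their values smaller, and the knockout libraries are not. The set of all tested genes was not matched to the members by level. Most members stayed close to Control in all 3 groups: 68 of 79 (86.1%) were within 0.5 log2 units of the Control mean in each group, against 58.2% of all tested genes, which are less abundant.

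**Figure D2:**
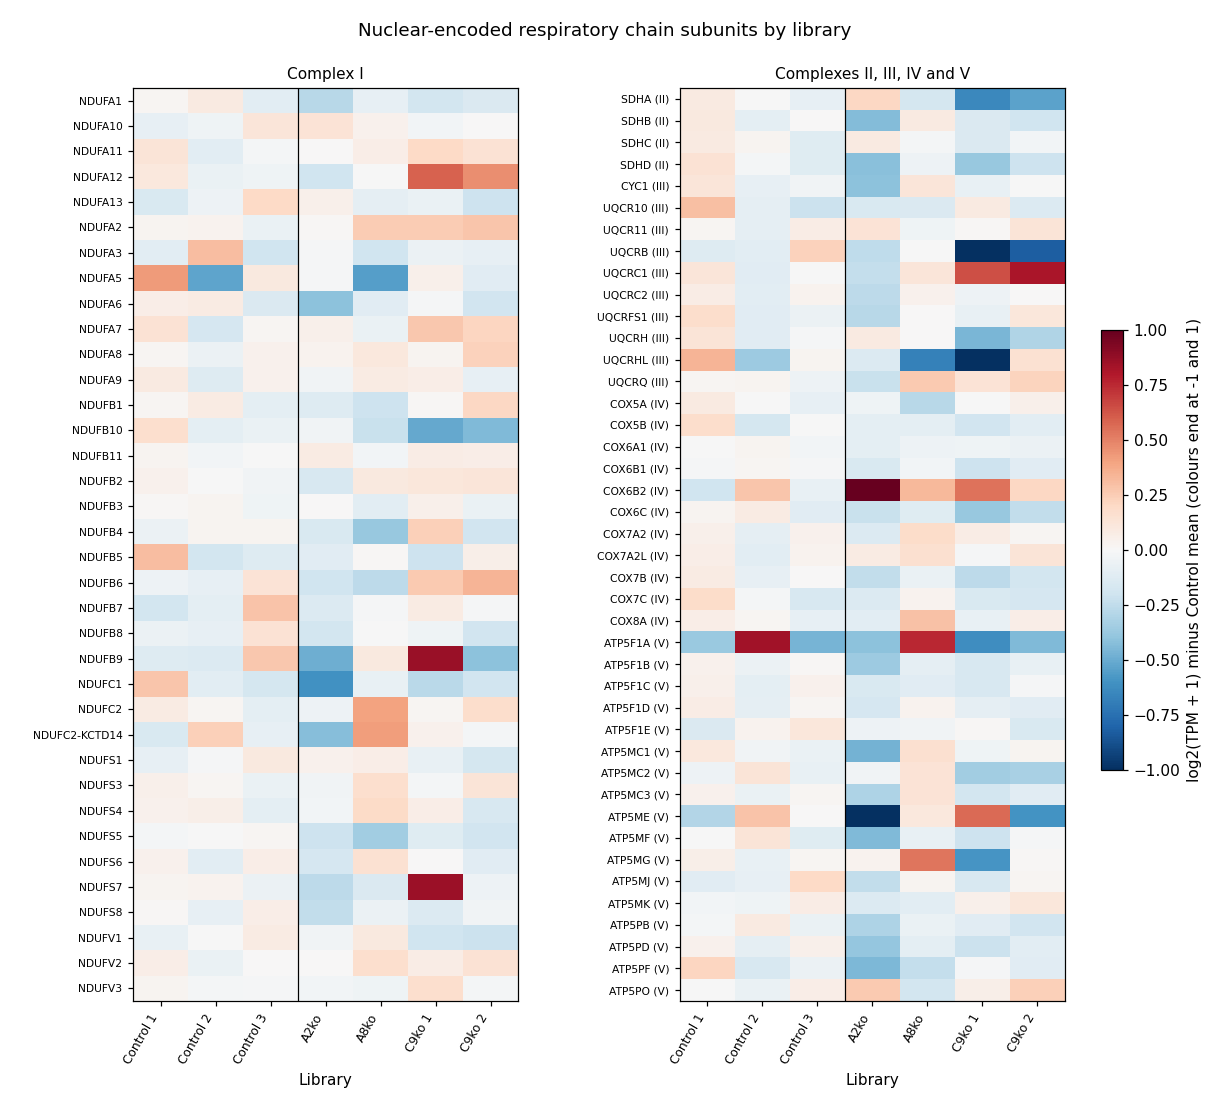
The tested members but 1 (vertical axis, by complex) in the 7 distinct libraries (horizontal axis), coloured by log2(TPM + 1) minus the Control mean, with colours ending at −1 and 1. Most cells are pale, UQCRC1 and NDUFA12 are red and SDHA, UQCRB and NDUFB10 blue in both C9ko libraries, and ATP5F1A and NDUFA5 vary among the Control libraries.

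C9ko, the group with 2 distinct libraries, was tested against Control with limma over all 17100 genes. Of the 79 tested members 4 rose and 6 fell (12.7%, Benjamini-Hochberg adjusted p under 0.05), where 29.5% of all tested genes were called, 22.0% higher and 7.42% lower. The members that rose were UQCRC1, NDUFA12, NDUFB6 and NDUFA2, and those that fell were UQCRB, SDHA, NDUFB10, UQCRH, ATP5MC2 and COX6C. Complex I had 3 higher and 1 lower of 37, complex II 1 lower of 4, complex III 1 higher and 2 lower of 10, complex IV 1 lower of 11 and complex V 1 lower of 17. Both C9ko libraries lay above all Control libraries for 10 members (12.7%, against 41.1% of all tested genes) and below them for 19 (24.1%, against 16.4%). With values scaled by the median of ratios 22 members (27.8%) were called, 2 higher and 20 lower, where 28.1% of all genes were called, 15.4% higher and 12.8% lower, so the share of called members that were higher was 9.09% in place of 40%, and over all genes 54.6% in place of 74.8%. Leaving out C9ko library 1 left 4 called members, UQCRC1, NDUFA12, SDHA and UQCRB.

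**Figure D3:**
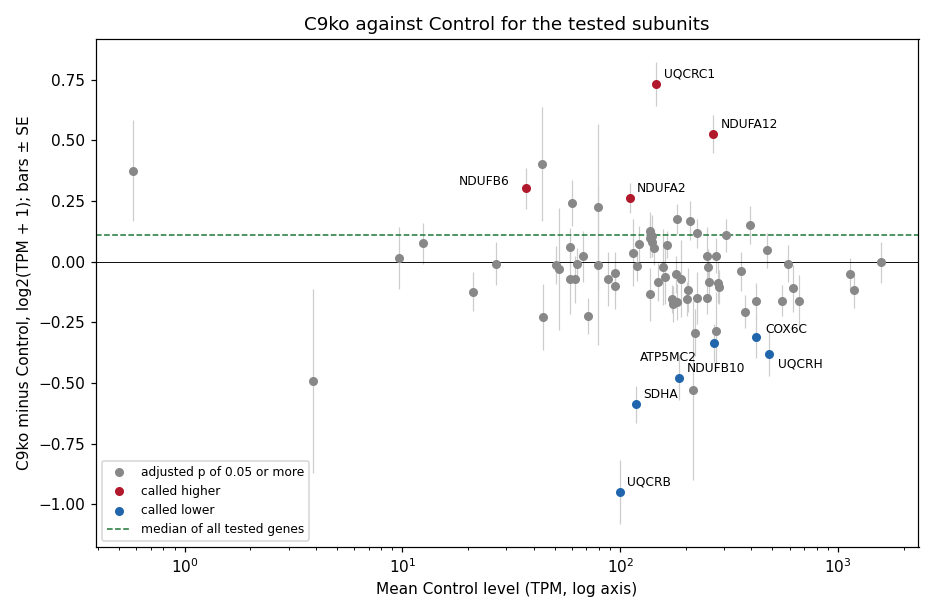
Log2 difference between C9ko and Control (vertical axis, bars ± SE from limma) against the mean Control level in TPM (horizontal axis, log scale) for the 79 tested members, with the 10 called members in colour and named. UQCRC1 is highest of those called at 0.73 and UQCRB lowest at −0.95, and the dashed line marks the median of all tested genes at 0.11.

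In complex I, NDUFA12, an accessory subunit of the matrix arm (chr12:94897055-95003770, minus strand), read 286, 254 and 258 TPM in Control, 400.2 and 367 in C9ko, 231 in A2ko and 265 in A8ko. Both C9ko libraries were above every other library, and the log2 difference was 0.53 (SE 0.08, limma adjusted p = 0.00327). NDUFB10, an accessory subunit of the membrane arm (chr16:1959508-1961975, plus strand), read 209, 174 and 178 TPM in Control, 130.3 and 137 in C9ko, 182 in A2ko and 159.9 in A8ko. C9ko was again apart from all other libraries, here below them, at −0.48 (SE 0.09, limma adjusted p = 0.00927).

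Smaller rises in complex I were those of NDUFB6 and NDUFA2. NDUFB6, of the membrane arm (chr9:32552999-32573184, minus strand), read 35.5, 34.7 and 40.6 TPM in Control, 44.4 and 47.0 in C9ko, 32.0 in A2ko and 30.5 in A8ko, a difference of 0.30 (SE 0.09, limma adjusted p = 0.0378). NDUFA2, a small subunit of the matrix arm (chr5:140638740-140647785, minus strand), read 113, 113 and 106 TPM in Control, 132 and 134 in C9ko, 111 in A2ko and 132 in A8ko, a difference of 0.26 (SE 0.06, limma adjusted p = 0.0191). A8ko stood beside C9ko for NDUFA2 and on the other side of Control for NDUFB6. Both calls were lost under scaling by the median of ratios. NDUFB6 overlaps SMIM27, and NDUFA2 overlaps TMCO6 and IK, on the opposite strand. The use of strand in counting is not given in the sources used here, so reads of these neighbours may be mixed in.

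The core subunits of complex I, most of which carry the flavin or iron-sulfur clusters, gave no call on the deposited values among those named here in C9ko. Scaled by the median of ratios, NDUFV1 (−0.34, limma adjusted p = 0.0126) and NDUFS8 (−0.22, limma adjusted p = 0.0198) were called lower, where 28.1% of all genes were called. Both were also called lower when rescaled without mitochondrially encoded genes. NDUFV1 read 357, 374 and 398 TPM in Control, 327 and 324 in C9ko, 367 in A2ko and 403 in A8ko (−0.21, SE 0.07, limma adjusted p = 0.0651). Both C9ko libraries were below Control for NDUFV1. The C9ko differences of NDUFS1, NDUFS3, NDUFS8 and NDUFV2 lay between −0.12 (NDUFS1) and 0.11 (NDUFV2). NDUFS7, which carries the cluster next to quinone, read 44.5, 44.7 and 42 TPM in Control, 80.1 and 42.1 in C9ko, 36.3 in A2ko and 39.3 in A8ko. The C9ko libraries disagreed on NDUFS7, 1 being far above Control and the other inside its range.

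In complex II, SDHA, the flavoprotein that oxidises succinate (chr5:218241-256700, plus strand), read 126, 118 and 111 TPM in Control, 75.3 and 81.0 in C9ko, 136 in A2ko and 105 in A8ko. C9ko was below all other libraries, at −0.59 (SE 0.07, limma adjusted p = 0.00156), while A2ko was above Control. SDHA has 4 copies elsewhere in the genome, SDHAP1 to SDHAP4, whose reads can be shared with it. These copies summed to 99.0, 91.7 and 96.6 TPM in Control, 90.1 and 97.0 in C9ko, 117 in A2ko and 105 in A8ko, so the copies did not fall as SDHA did and SDHA is uncertain to the extent that reads were split. SDHB, the iron-sulfur subunit, read 187, 163 and 175 TPM in Control, 158 and 152 in C9ko, 129 in A2ko and 186 in A8ko (C9ko −0.17, SE 0.07, limma adjusted p = 0.126). The anchors SDHC and SDHD differed by −0.09 and −0.29 in C9ko (limma adjusted p = 0.472 and 0.0617).

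In complex III, UQCRC1, a matrix-side core protein (chr3:48599002-48610976, minus strand), read 158, 134 and 145 TPM in Control, 229 and 258 in C9ko, 123 in A2ko and 158 in A8ko. Its C9ko difference of 0.73 (SE 0.09, limma adjusted p = 0.00143) was the largest rise among the tested members, and the groups did not overlap. Its partner UQCRC2 read 266, 235 and 259.8 TPM in Control, 245 and 255 in C9ko, 211 in A2ko and 261 in A8ko, with C9ko inside the Control range.

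UQCRB, which takes part in ubiquinone binding (chr8:96225920-96235634, minus strand), read 90.5, 91.9 and 117 TPM in Control, 46.4 and 55.4 in C9ko, 82.7 in A2ko and 98.8 in A8ko. This was the lowest log2 difference of the tested members in C9ko, −0.95 (SE 0.13, limma adjusted p = 0.00223), and both libraries lay far below the rest. UQCRH (chr1:46303631-46316776, plus strand) read 526, 445 and 476 TPM in Control, 351 and 389.8 in C9ko, 513 in A2ko and 482 in A8ko (−0.38, SE 0.09, limma adjusted p = 0.0220). C9ko was again below all other libraries. The electron carriers of the complex, CYC1 (cytochrome c1) and UQCRFS1 (the Rieske iron-sulfur protein), differed by −0.04 and 0.02 in C9ko (limma adjusted p = 0.739 and 0.895).

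In complex IV, COX6C, a small membrane subunit (chr8:99873200-99894062, minus strand), read 427, 444 and 386 TPM in Control, 321 and 353 in C9ko, 358 in A2ko and 385 in A8ko. All knockout libraries were below Control, by the least in A8ko, and the C9ko difference was −0.31 (SE 0.08, limma adjusted p = 0.0323). COX8A read 1646, 1596 and 1489.6 TPM in Control, 1500.1 and 1650.0 in C9ko, 1468 in A2ko and 1926 in A8ko. A8ko was alone in standing well above the other libraries for COX8A. COX6A1 was among the steadiest members, at 1127, 1157 and 1114 TPM in Control, 1099 and 1087 in C9ko, 1059 in A2ko and 1093 in A8ko.

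In complex V, ATP5MC2, a ring subunit gene (chr12:53632726-53677408, minus strand), read 259, 293 and 254 TPM in Control, 211 and 214 in C9ko, 262 in A2ko and 295 in A8ko. Both C9ko libraries were below Control and the other knockouts were not, at −0.33 (SE 0.08, limma adjusted p = 0.0195). ATP5MC1 and ATP5MC3 differed by −0.01 and −0.15 in C9ko (limma adjusted p = 0.946 and 0.132). ATP5F1B read 1227, 1142 and 1197 TPM in Control, 1061 and 1131 in C9ko, 923 in A2ko and 1119 in A8ko, all knockout libraries being below Control. ATP5F1A, the alpha subunit that alternates with beta in the catalytic head, read 152, 355 and 143 TPM in Control, 128 and 146 in C9ko, 149 in A2ko and 334 in A8ko. Its libraries fell at a high level (Control 2 and A8ko) and a low level (the other 5), a split that does not follow the groups. ATP5F1A overlaps HAUS1 on the opposite strand.

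**Figure D4:**
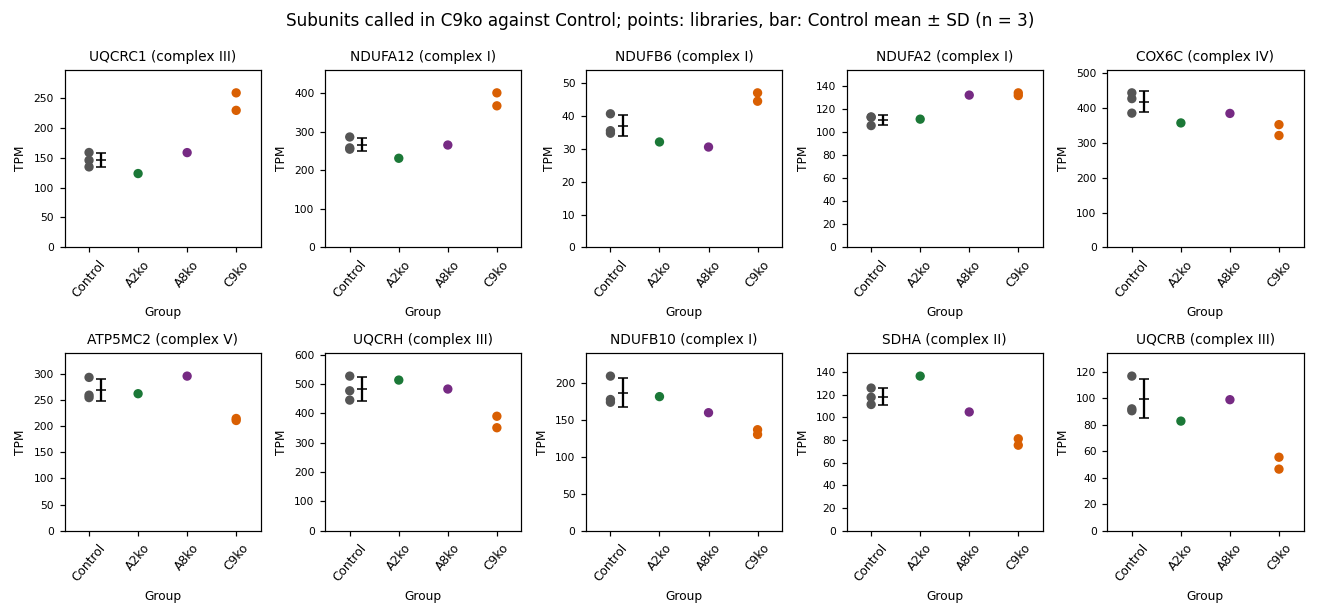
TPM (vertical axes, from 0) of the 10 members called in C9ko against Control, by group (horizontal axes), with a point per distinct library and the Control mean ± SD (n = 3). The C9ko points lie apart from the Control points in each panel, and those of UQCRC1, at 229 and 258 TPM, are above 123 to 158 TPM in the other libraries.

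Genes next to each other can change together, so the tested genes within 5 Mb of each member were read in the same fit, for the 77 members with at least 20 of them. Around UQCRC1 the median C9ko difference of 158 genes was 0.88, and 87.3% of them were called, so UQCRC1 at 0.73 rose with its neighbourhood on chromosome 3. Around NDUFB6 the median was 0.50 (72 genes, 66.7% called), around NDUFA12 it was 0.32 (34 genes, 44.1% called) and around SDHA it was −0.44 (25 genes, 64.0% called). NDUFS6 lies within 5 Mb of SDHA on chromosome 5, so their windows overlap and their neighbourhood medians are not separate observations. The median around NDUFS6 was −0.35 over 30 genes. NDUFS6 itself read 186, 168 and 189 TPM in Control and 181 and 167 in C9ko. For the other called members the neighbourhood medians lay between 0.04 (COX6C) and 0.12 (NDUFA2), near the median of all tested genes. UQCRB, NDUFB10, UQCRH, ATP5MC2 and COX6C thus fell where the neighbourhood medians were above 0. In A8ko the 89 genes around COX5A had a median of −0.29, and COX5A read 294, 275 and 261 TPM in Control and 228 in A8ko. The part of the surrounding region in these results was not tested.

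**Figure D5:**
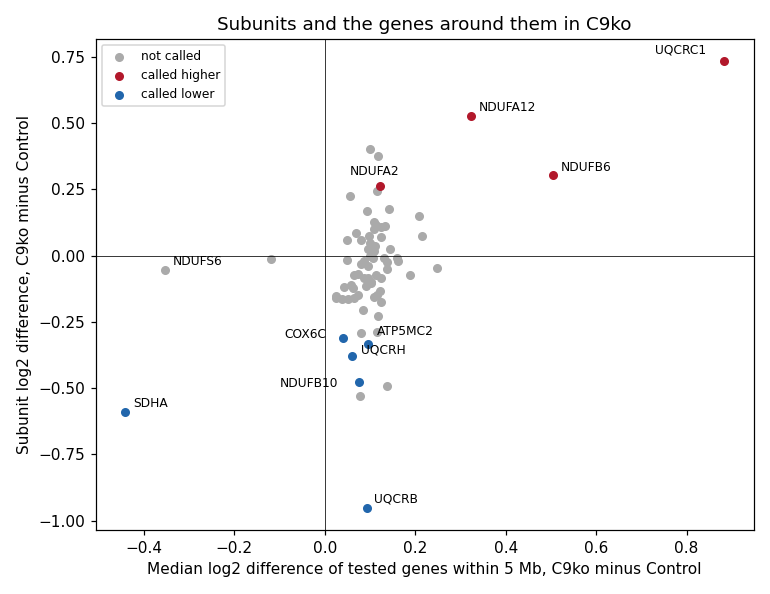
Log2 difference of each tested member between C9ko and Control (vertical axis) against the median log2 difference of the tested genes within 5 Mb of it (horizontal axis), for the 77 members with at least 20 such genes. UQCRC1, NDUFB6 and NDUFA12 lie to the right at 0.88, 0.50 and 0.32, SDHA and NDUFS6 to the left, and UQCRB at −0.95 lies over neighbours near 0.09.

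A2ko and A8ko were each set against the Control range without a test. In A2ko, 42 of 79 members (53.2%) were below all Control libraries, against 26.3% of all tested genes, and 8 (10.1%) were above them, against 50.4%. In complex V 12 of 17 were below. In both directions 50 members were outside the range, where 76.7% of all tested genes were. Of 78 mitochondrial ribosome proteins, 49 were below the Control range in A2ko and 14 above it. Of 49 assembly factors 20 were below and 12 above, and of 13 enzymes of the tricarboxylic acid cycle 6 and 4. Lower values in A2ko were thus not particular to the members. At least 0.5 log2 units from the Control mean were 3 members, 1 higher and 2 lower, where the share over all tested genes was 22.8%, 16.6% higher and 6.26% lower. These were COX6B2, a testis isoform, at 2.31 TPM in A2ko against 0.358, 0.899 and 0.481 TPM in Control, NDUFC1 and ATP5ME. NDUFC1, a membrane-arm subunit of complex I, read 28.3 TPM in A2ko against 53.3, 40.6 and 38.7 TPM. ATP5ME, a membrane subunit of the ATP synthase, read 38.3 TPM in A2ko against 63.8, 95.8 and 78.4 TPM, but the C9ko libraries themselves differed, at 116 and 51.5 TPM. Scaled by the median of ratios the count was 14 members, and without library Control 2 or Control 3 it was 5 or 6. The share over all tested genes is not given for these settings, so these counts say nothing particular to the members.

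Of 14 core and catalytic members described here, 8 lay below the Control range in A2ko, 5 inside it (NDUFS1, NDUFS3, NDUFV1, NDUFV2 and ATP5F1A) and SDHA above it. Examples of those below were SDHB (129 TPM against 163 to 187 in Control), CYC1 (269.8 against 339 to 391) and ATP5F1B (923 against 1142 to 1227). The ring gene ATP5MC1 was below it as well (424 against 560.1 to 632). Scaled by the median of ratios, 64 members were below the Control range in A2ko and 3 above it, beside 37.9% and 38.9% of all tested genes.

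In A8ko, 20 members (25.3%) were above the Control range, against 46.9% of all tested genes, and 22 (27.8%) below it, against 26.4%. In both directions 42 were outside it, where 73.3% of all tested genes were. Counted at 0.5 log2 units were 3 members, 1 higher and 2 lower, beside 18.9% of all tested genes, 10.4% higher and 8.47% lower. ATP5MG, a membrane subunit of the ATP synthase, was higher at 398 TPM against 285, 260.1 and 277 TPM in Control, while C9ko read 182 and 276 TPM. NDUFA5 was lower at 34.1 TPM, but Control itself ranged from 34.6 to 68.0 TPM. UQCRHL was lower at 1.99 TPM against 2.71 to 5.05 TPM, near the lower limit of the tested genes. Scaled by the median of ratios, 13 members were above and 40 below the Control range in A8ko, beside 36.2% and 35.8% of all tested genes, so the near-even split of the deposited values moved to mostly lower.

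With the mean of each knockout group as 1 value, so that the spread between groups counts as error, limma called 0 of the 79 members between all knockouts and Control, where 1.03% of all tested genes were called, 0.509% higher and 0.520% lower. At an unadjusted p under 0.05 there was 1 member, NDUFS5, beside 2740 of the 17100 tested genes. NDUFS5, an accessory subunit of complex I, read 170.1, 172 and 174 TPM in Control, 158 and 151 in C9ko, 149 in A2ko and 135 in A8ko (−0.24, SE 0.09, limma adjusted p = 0.258). Its 4 knockout libraries all lay below a narrow Control range. The average of the knockout groups within the fit of all 4 groups, where the spread between groups is not error, called NDUFS5, UQCRB and ATP5PD lower (limma adjusted p = 0.0157, 0.0404 and 0.0484), where 25.5% of all tested genes were called.

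Every knockout library was below every Control library for 6 members (7.59%, against 4.61% of all tested genes): NDUFS5, COX6A1, COX6B1, COX6C, ATP5F1B and ATP5PD. ATP5PD, of the stalk that holds the catalytic head in place, read 432, 394 and 436 TPM in Control, 361 and 390.1 in C9ko, 321 in A2ko and 392 in A8ko. COX6B1, a subunit on the intermembrane side of complex IV, read 547, 559 and 546 TPM in Control, 476 and 509 in C9ko, 496 in A2ko and 539 in A8ko. The A8ko and Control values of both genes were close. No member was above Control in all 4 knockout libraries, against 17.0% of all tested genes. Scaled by the median of ratios, 19 members (24.1%) were below Control in all 4 and 0 above, beside 9.36% and 8.98% of all tested genes.

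The genes that build and govern the chain were read from lists of pathway members. Of 49 assembly factors, 9 rose and 0 fell in C9ko (limma, adjusted p under 0.05), with a median difference of 0.08 that became −0.05 when scaled by the median of ratios. Of 78 mitochondrial ribosome proteins, which translate the mitochondrially encoded subunits, 9 rose and 1 fell, with a median of 0.07 that became −0.06 when scaled. Of 13 enzymes of the tricarboxylic acid cycle, 1 rose and 1 fell. Of 15 regulators of mitochondrial gene expression, PPRC1, GABPB1, TFAM, TFB2M and TWNK rose and PPARGC1A fell in C9ko. The regulators had a median of 0.03 that became −0.10 when scaled. PPARGC1A, a coactivator of respiratory chain genes, read 7.96, 7.93 and 8.40 TPM in Control, 5.38 and 6.44 in C9ko, 9.06 in A2ko and 4.37 in A8ko (−0.40, SE 0.10, limma adjusted p = 0.0233). GABPB1, a partner of the ETS factor GABPA, read 10.1, 7.54 and 9.01 TPM in Control and 14.9 and 13.8 in C9ko. In the comparison of all knockouts, each of these lists had 0 genes called. Over all tested genes 29.5% were called in C9ko, so the shares of called genes among the assembly factors (18.4%), the ribosome proteins (12.8%) and the cycle enzymes (15.4%) were below it. The share of the regulators (40%) was above it but rests on 6 of 15 genes, too few to set that list apart from all genes.

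NDUFA4, a subunit of complex IV that the symbol rule leaves out, read 334, 381 and 299 TPM in Control, 237 and 261 in C9ko, 279.7 in A2ko and 316 in A8ko (−0.43, SE 0.11, limma adjusted p = 0.0251). C15orf48, a paralogue known to take the place of NDUFA4 in complex IV, read 2.77, 2.26 and 2.76 TPM in Control, 137 and 144 in C9ko, 5.62 in A2ko and 23.5 in A8ko (5.30, SE 0.09, limma adjusted p = 1.96e-06). It was higher than Control in all 4 knockout libraries, whereas NDUFA4 was below the Control range in A2ko and C9ko and inside it in A8ko. The call of NDUFA4 was lost in 5 of 14 alternatives, among them leaving out either C9ko library (limma adjusted p up to 0.157 over the alternatives).

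Some members varied within a group by at least 0.5 log2 units, which limits what a single library shows. These were ATP5F1A, ATP5ME, ATP5MG, NDUFA3, NDUFA5, NDUFB9, NDUFS7, UQCR10 and UQCRHL. NDUFB9 read 143 and 58.4 TPM in the C9ko libraries and 71.2, 71.0 and 94.4 TPM in Control, and it overlaps TATDN1 and MTSS1 on the opposite strand. The median Control SD on the log2 scale was 0.0945 over the tested members and 0.102 over all tested genes. Processed and other pseudogenes with member symbols, 171 in number, summed to 27.8 to 34.2 TPM in a library, or 0.157 to 0.195% of members and pseudogenes together.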

How the data were processed

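RNA was measured in 9 samples of CAL27 cells, grouped by their titles. The authors deposited TPM per gene, 1 value for each of 78894 identifiers. The build is hg38, per the submitters' processing notes. The aligner, the quantification tool, the annotation and the use of strand are not given in the sources used here. Per the labels' protocols, RNA was taken with TRIzol and 2 ug of total RNA went into each dUTP library. Depth is unknown, so precision rests on the spread between libraries. The TPM total of A2ko was 129.8 above that of a complete library, and the others were at it.

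Identical files of a group were counted as 1 library. Symbols were found for 61463 identifiers, and 57342 were placed on GRCh38 with GENCODE 29. Of 265 symbols matching the pattern, 178 were not protein coding and 2 were left out by name.

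Values were analysed as log2(TPM + 1) with a minimum of 1 TPM in at least 2 distinct libraries (17100 genes). All 4 groups entered 1 fit with limma 3.58.1 (lmFit, eBayes with trend, R 4.3.3) for C9ko, and 3 group means were set against 3 Control libraries for all knockouts, with p-values adjusted by Benjamini-Hochberg over every tested gene. A2ko and A8ko, with 1 library each, added nothing to the estimate of spread for C9ko. The fits were tested on simulated data. In A2ko and A8ko, members outside the Control range and at least 0.5 log2 units from the Control mean were counted. Alternatives were other pseudocounts, filters, scalings and fits, and leaving out each library. Python 3.11.15 and pandas 2.3.3 were used for the rest.

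The rule for named genes took, per complex, the highest member in Control and the called members with the largest rise and fall in C9ko. It also took up to 5 members per direction beyond Control in all knockout libraries, the largest counted changes in A2ko and A8ko, isoform families and catalytic subunits. Other members (NDUFB6, NDUFA2, UQCRH, NDUFB9, NDUFS6, COX5A, SDHD), CDH5, CDH1, the copies of SDHA and the regulators were named after their values were seen. The values of 1 member are not reported here. The members and lists were chosen with earlier results of these data known.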

Additional observations from a re-analysis of the deposited data

Results flagged for a closer look

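For 5 members called in C9ko, another knockout lay on the other side of the Control range. The share over all genes called in C9ko is not given here, so whether 5 is many was not tested. Of all tested genes, 76.7% lay outside the Control range in A2ko and 73.3% in A8ko. UQCRC1 was higher in C9ko and lower in A2ko, the groups being 0.97 log2 units apart. SDHA was lower in C9ko and higher in A2ko, 0.79 log2 units apart. NDUFA12 was higher in C9ko and lower in A2ko, 0.73 log2 units apart. NDUFB6 was higher in C9ko and lower in both A2ko and A8ko, 0.50 and 0.57 log2 units apart. ATP5MC2 was lower in C9ko and higher in A8ko, 0.47 log2 units apart, with the A8ko value of 295 TPM just above the highest Control value of 293 TPM. No test of the difference was made, because A2ko and A8ko are each a single distinct library.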

How the results depend on the processing

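The count of 10 members called in C9ko was 4 with no filter on low values (8.23% of all genes called). It was 22 when scaled by the median of ratios (28.1%) and 19 when rescaled without mitochondrially encoded genes (28.1%). With all 9 files as separate libraries it was 23 (47.8%). Of the 10 members, 8 were among the 22 and 8 among the 19. Without 1 Control library the count was 7 or 8 (22.4 to 24.4% of all genes). Leaving out a C9ko library leaves 1 in that group. Members on which the C9ko libraries disagree then depend on the library kept, such as ATP5MG, at −0.59 without C9ko library 2 and 0.01 without C9ko library 1. UQCRC1, NDUFA12 and SDHA kept their calls in 14 of 14 alternatives, UQCRB in 13, NDUFB10 in 12, ATP5MC2 in 10, UQCRH in 9, COX6C and NDUFA2 in 7 and NDUFB6 in 5, and all kept their direction. The setting with all 9 files is 1 of the 14. It takes identical files as replicates and so understates the spread, and it lost 0 calls, so it is no check of them. The fit of only Control and C9ko libraries is also 1 of the 14 and lost 0 calls. It nearly repeats the main fit, because A2ko and A8ko, with 1 library each, add nothing to the estimate of spread. With the replicate number as a block 6 members were called (19.0% of all genes), 5 of them shared, and ATP5F1A was added at −0.76 (limma adjusted p = 0.0488). Replicate 3 exists only in Control, so the block takes Control library 3 out of the difference. Without Control library 2, where ATP5F1A read 355 TPM, its difference was −0.11 (limma adjusted p = 0.405). The replicate numbers did not pair the samples by this check: the difference between replicates 1 and 2 correlated at −0.0372 across genes between Control and C9ko. For all knockouts, the count of 0 became 3 with the knockout average in the fit of all 4 groups and stayed 0 in the other alternatives run. No paired analysis was possible there because group means carry no replicate number. The A2ko count of 3 was 50 with no minimum difference (76.7% of all tested genes), 14 when scaled and 3 to 6 without a Control library. The A8ko count of 3 was 42 with no minimum (73.3% of all tested genes), 0 at 1 log2 unit and 2 to 4 without a Control library. For the other settings of the A2ko and A8ko counts the share over all tested genes is not given.

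The members' median difference became −0.27 (A2ko), −0.11 (A8ko) and −0.18 (C9ko) when scaled, and −0.078 (A8ko) and −0.15 (C9ko) without mitochondrially encoded genes. The members' sum became 81.7% (A2ko), 95.6% (A8ko) and 87.5% (C9ko) of Control when scaled, and 97.6% (A8ko) and 89.5% (C9ko) without those genes. The causes of these changes were not tested. With 1 distinct library, A2ko and A8ko have no replicate check, and with no depth given, the counting error of weakly expressed members such as COX6B2 and UQCRHL is unknown.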
